A study of Arabidopsis thaliana with 12 samples.

Results

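The probe sets described here are those whose signal was at least 2-fold lower in arrays with dimethylthiourea (DMTU), both without and with abscisic acid (ABA). They were chosen on group means of the log2 values: DMTU minus control and ABA+DMTU minus ABA both had to be -1 or lower. Only probe sets with no gene in the annotation, or with no gene symbol beyond an AT locus, were kept, and class III peroxidases were left out. Of 22746 probe sets that are not array controls, 745 (3.28%) met the threshold without ABA, 761 (3.35%) met it with ABA and 243 (1.07%) met both. Of the 243, 30 carried a symbol and 4 were peroxidases, which left 209 members. Of the members, 97 were annotated with 1 gene each, all different, 1 with several genes, and 111 with none.

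All samples were T87 cells, an established suspension culture of Arabidopsis thaliana in the Col-0 background, at 5 days of culture and after 20 h of treatment. The ABA+DMTU group received 50 µM ABA and 5 mM DMTU, the DMTU group 5 mM DMTU with ethanol, the ABA group 50 µM ABA, and the control group ethanol. Every culture grew in sucrose medium with the auxin 1-naphthaleneacetic acid. Each group had 3 arrays. Nothing in the labels says that the arrays of a group stand for separate cultures, so the p-values rest on a spread that may be technical. No batch is named either. The sample numbers of the arrays with DMTU form a run separate from those of the arrays without it, which the labels do not explain. A batch shared by all arrays with DMTU cannot be told apart from the compound.

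DMTU is a membrane-permeable compound that reacts with hydrogen peroxide and hydroxyl radicals, and the study used it to test how far ABA acts through hydrogen peroxide. ABA, a plant hormone with roles in drought and dormancy, makes plant cells produce hydrogen peroxide through NADPH oxidases, and the peroxide acts as a signal in several ABA responses. A 3' expression array reads each transcript with short probes. The labelled copies start at the poly(A) tail, so probes far from that end give signal only where the RNA was intact and copying ran that far.

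Replicate 1 of the control group and replicate 1 of the ABA group stood apart from the others, also in these probe sets. The median deviation of the 209 members from their group mean was 0.19 in ABA replicate 1, against -0.13 and -0.09 in the other ABA arrays, and 0.30 in control replicate 1, against -0.18 and -0.16 in the other control arrays. On the DMTU and ABA+DMTU arrays it stayed between -0.03 and 0.04. The median within-group SD was 0.34 for members and 0.19 for all probe sets. When the rule was applied again without control replicate 1 it gave 176 probe sets, of which 165 were among the 209, and without both arrays numbered 1 it gave 171, of which 141 were among them. RNA quality values are given with the second probe sets and with the ABA effect.

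The values in this paragraph chose the members and are a description with no test. Across the 209 members, DMTU minus control had a median of -1.56 and a range of -4.94 to -1.002 on the log2 scale, and ABA+DMTU minus ABA a median of -1.49 and a range of -4.01 to -1.003. For all probe sets these medians were 0.03 and 0.05. The median member level was 6.21 in ABA+DMTU, 5.38 in DMTU, 8.04 in ABA and 7.22 in control. Every DMTU array lay under every control array for 204 members, where 17.4% of all probe sets did so, and every ABA+DMTU array lay under every ABA array for 195, where 15.3% of all did so. Both held for 192 members, against 7.5% of all probe sets. In bulk RNA, fewer cells of a kind and less RNA per cell cannot be told apart.

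**Figure D1:**
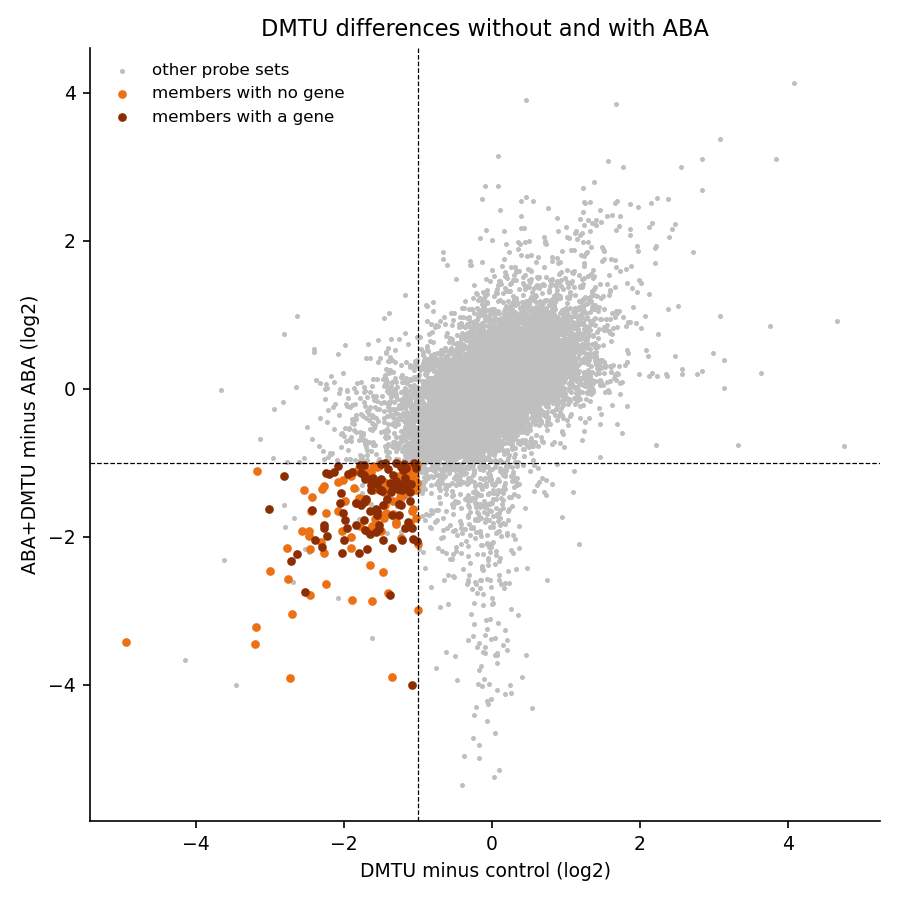
Each point is a probe set, with DMTU minus control on the x axis and ABA+DMTU minus ABA on the y axis, both as differences of group means on the log2 scale. Dashed lines mark the threshold of -1, and the 209 members are the coloured points below and left of both lines, while grey points there carry a gene symbol or are peroxidases.

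Since both DMTU differences had to be -1 or lower, how far they match is partly fixed by the rule, and what follows is a description. The difference between the 2 values had a median of 0.05, with quartiles of -0.23 and 0.38, and it exceeded 1 in size for 18 of the 209 members. Of these, 9 lay lower by more with ABA and 9 lay lower by more without it. AT3G25640 was the most unequal member. Its log2 levels were 4.98, 5.84 and 6.91 in ABA+DMTU and 9.67, 9.93 and 10.16 in ABA arrays, but 4.08, 4.31 and 4.44 in DMTU and 4.86, 5.75 and 5.44 in control arrays. The differences were -4.01 with ABA and -1.07 without it, and the levels in DMTU arrays lay near the low end of the scale, where the lower quartiles of the 12 arrays were 3.84 to 3.98. In DMTU arrays 83 members averaged under a level of 5 and in ABA+DMTU arrays 59 did, against 1 in ABA and 3 in control arrays, so the sizes of many differences may be bounded by that low end, which was not measured.

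AT1G15740, AT2G17410 and AT3G29210 lay nearest the threshold inside it, with -1.003, -1.009 and -1.012 in ABA+DMTU minus ABA. Nearest outside, with the same kind of annotation, were AT5G63190 and AT5G13030, with -0.999 and -0.992 in ABA+DMTU minus ABA, and AT5G64850, with -0.999 in DMTU minus control. These values differ by far less than the spread between arrays, so membership at the edge is a matter of the rule.

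A second probe set on the array gave a separate reading of the same gene for 25 of the 97 member genes, and in most of them it did not share the DMTU difference. Of 13286 genes with a probe set of their own, only 144 had 2 or more, which is 1.08%, while among member genes the share was 25.8%. Put the other way, 17.4% of genes with several probe sets had a member, against 0.548% of the 13142 genes with a single one. These totals include genes with a symbol and peroxidases, which could not have a member. A gene with several probe sets also has more chances to have one. Counting probe sets with 1 gene only, no gene had 2 members. The 28 other probe sets of the 25 genes had a median DMTU minus control of -0.12 (range -1.17 to 0.59) and a median ABA+DMTU minus ABA of 0.00 (range -0.63 to 0.39). The 25 members of the same genes had medians of -1.71 and -1.78. Since members were chosen for low values, some gap to another probe set of the gene is fixed by the choice.

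AT2G07360, a subunit of the TPLATE complex of plant endocytosis, shows the pattern. Its member probe set had log2 levels of 4.31, 4.75 and 4.28 in ABA+DMTU and 6.92, 6.40 and 6.67 in ABA arrays. Without ABA it had 4.56, 4.75 and 5.11 in DMTU and 7.11, 6.76 and 6.65 in control arrays. All arrays with DMTU lay below all arrays without it. The other probe set of the gene had 8.48, 8.55 and 8.33 in ABA+DMTU, 8.35, 8.30 and 8.17 in DMTU, 8.29, 7.93 and 8.06 in ABA and 8.52, 8.15 and 8.23 in control arrays. There the DMTU and control arrays overlapped, and the ABA+DMTU arrays lay slightly above the ABA arrays.

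AT2G20050 encodes a protein with a protein phosphatase 2C domain joined to a kinase-like domain. Its member probe set had 4.89, 4.79 and 4.89 in ABA+DMTU, 4.45, 4.04 and 4.55 in DMTU, 6.74, 7.05 and 6.92 in ABA and 6.53, 6.82 and 6.85 in control arrays. The other probe set had 8.40, 8.28 and 8.19 in ABA+DMTU, 7.66, 7.73 and 7.68 in DMTU, 7.91, 8.12 and 8.17 in ABA and 7.58, 7.92 and 7.77 in control arrays. The member was thus lower by 2 log2 units or more with DMTU, where the other probe set differed by -0.07 without ABA and by 0.22 with it.

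The epsin gene AT2G43160, of an adaptor family in vesicle budding, had differences of -1.96 and -1.88 at the member probe set and of 0.05 and -0.23 at the other, without and with ABA. The AAA-type ATPase gene AT4G02480 had -2.24 and -1.99 at the member and -0.12 and -0.15 at the other. The nicastrin gene AT3G52640, a component of the gamma-secretase protease, had -2.01 and -2.05 at the member and -0.59 and -0.35 at the other. AT5G35430 had -2.30 and -2.14 against -0.34 and -0.26. For 19 of the 28 other probe sets both differences were under 0.5 in size. None was at -1 or lower in both comparisons, since such a probe set would itself have been a member. In 1 of them 4 were, namely a further probe set each of AT2G27900, AT1G70250, AT1G01320 and AT2G48060. AT4G00800, left out of the members for its annotation, did pass at both of its probe sets. These had DMTU minus control of -1.45 and -1.21 and ABA+DMTU minus ABA of -1.76 and -1.49.

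**Figure D2:**
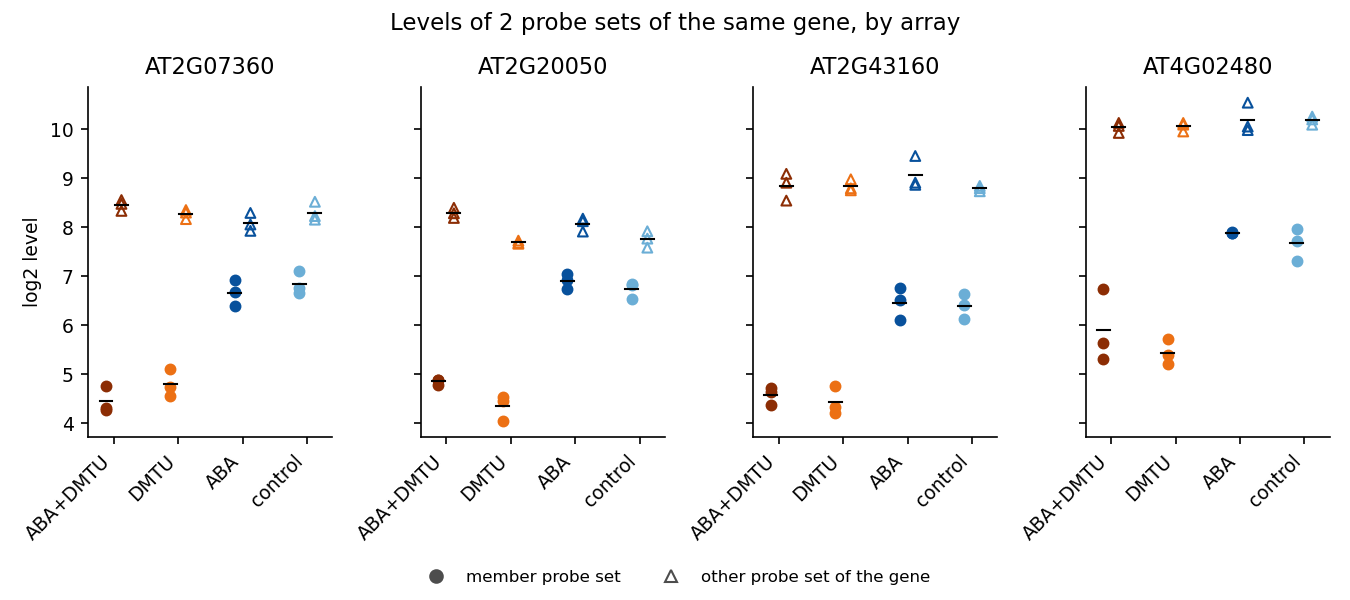
The y axis is the log2 level on each array, and the x axis the treatment group, for the member probe set (filled circles) and the other probe set (open triangles) of 4 genes. Each point is 1 array and each bar a group mean, and the circles lie lower in the ABA+DMTU and DMTU groups while the triangles stay between 7.58 and 10.54 in all groups.

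The other probe set was the brighter one in 26 of the 28 pairs, by a median of 2.22 on the log2 scale, although levels of different probe sets are not on a common scale. Within pairs, the median of the member's level minus the other's was -2.82, -3.12 and -3.06 in ABA+DMTU and -3.03, -2.94 and -3.09 in DMTU arrays, against -1.33, -1.25 and -1.20 in ABA and -1.45, -1.33 and -1.36 in control arrays. The arrays with and without DMTU did not overlap in this value, and replicate 1 of the control and ABA groups did not stand apart in it. The rule chose the member of each pair for low values with DMTU, so a gap between these arrays is in part fixed by the choice. Of the 119 other genes with several probe sets, 13 (10.9%) had probe sets whose mean DMTU differences were at least 1 apart. In these 119 genes the dimmest probe set had the lower value of the pair in both DMTU comparisons in 71 genes and the higher one in both in 24.

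**Figure D3:**
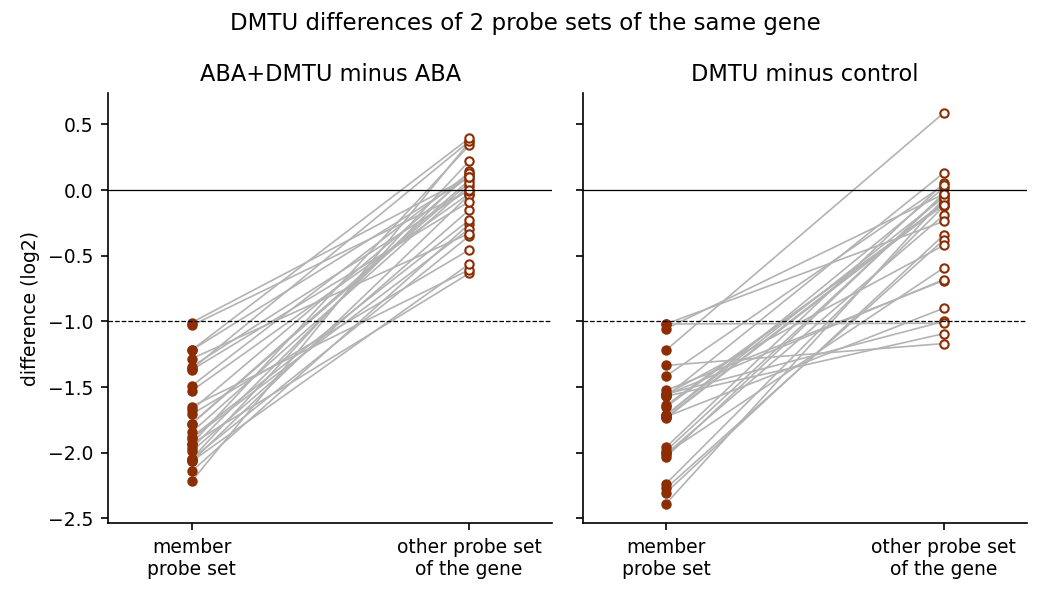
Lines join the member probe set (filled) and another probe set of the same gene (open) for 28 pairs from 25 genes, with the DMTU difference on the log2 scale on the y axis, with ABA at left and without ABA at right. All members lie at or under the dashed line at -1, while the other probe sets centre near 0.

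RNA quality moved with DMTU in the same arrays. The 3' minus 5' log2 difference of the ubiquitin control probe sets was 1.03 to 1.17 in ABA+DMTU against 0.64 to 0.72 in ABA arrays, and 1.28 to 1.41 in DMTU against 0.88 to 1.01 in control arrays. A second actin pair had 1.17 to 1.44 in ABA+DMTU against 0.89 to 1.03 in ABA arrays, and 1.06 to 1.15 in DMTU against 0.64 to 0.91 in control arrays. Neither overlapped between arrays with and without DMTU. A second ubiquitin pair, 2 GAPDH pairs and the other actin pair overlapped in at least 1 of the comparisons. The first GAPDH pair had 0.12 to 0.90 in ABA+DMTU against 0.52 to 0.65 in ABA arrays, and 0.20 to 0.57 in DMTU against 0.35 to 0.55 in control arrays. The part of RNA quality in the members' differences was not tested. The tables used here do not place probe sets along a transcript.

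Member genes had a longer median span than all probe sets with a span, and the excess was largest in those with another probe set. The gene span, from the first to the last base of the gene in the TAIR10.1 RefSeq annotation, had a median of 3388 bases (quartiles 2018 and 5386) for the 97 members with 1 gene, against 2117 bases (quartiles 1406 and 3068) for all 13436 probe sets with a span. A span of 5000 bases or more was found for 26.8% of these members and 5.71% of all. Spans exist for only 46.4% of the 209 members, so a check of length over all members is void, and the values describe the 97 alone. The shares by span that follow are of all probe sets with a span, also those with a symbol, which could not be members. The share of probe sets that were members was 0.226% for genes under 1000 bases, 0.458% from 1000 to 2000, 0.453% from 2000 to 3000, 0.938% from 3000 to 4000, 1.39% from 4000 to 5000, 2.86% from 5000 to 8000 and 5.84% at 8000 bases or more. Probe sets raised at least 2-fold in both DMTU comparisons, with the same annotation rule, made up 0.395% of probe sets under 1000 bases and 0.730% at 8000 or more, and stayed between these values in the other bins.

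The 25 member genes with another probe set had a median span of 5855 bases and a shortest of 3459. The other 72 had a median of 2361 and a longest of 7409, where the median of all probe sets with a span was 2117. Of the 97 members with 1 gene, 8 (8.25%) also carried the locus tag of a further gene as a synonym, as where neighbouring gene models were merged. Of all probe sets with a span, 0.662% did. All 8 were among the 25 with another probe set. More than 1 RefSeq transcript was listed for 58.8% of the members with 1 gene and 38.1% of all probe sets with a span. Probe sets that were no members lack the most lowered ones by construction. Among them, the median DMTU minus control was 0.06 under 1000 bases and -0.11 at 8000 or more, and the median ABA+DMTU minus ABA 0.07 and -0.05. The share of them at -1 or lower was 9.30% at 8000 bases or more for DMTU minus control, against 1.66% to 2.29% in the shorter bins. For ABA+DMTU minus ABA it was 4.65% there, against 1.29% to 3.11%. The median level of 741 such probe sets of genes of 5000 bases or more, minus that of 6109 under 2000 bases, was 1.65 to 1.87 in ABA+DMTU against 1.80 to 2.06 in ABA arrays, and 2.08 to 2.21 in DMTU against 2.12 to 2.35 in control arrays, so the groups overlapped.

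**Figure D4:**
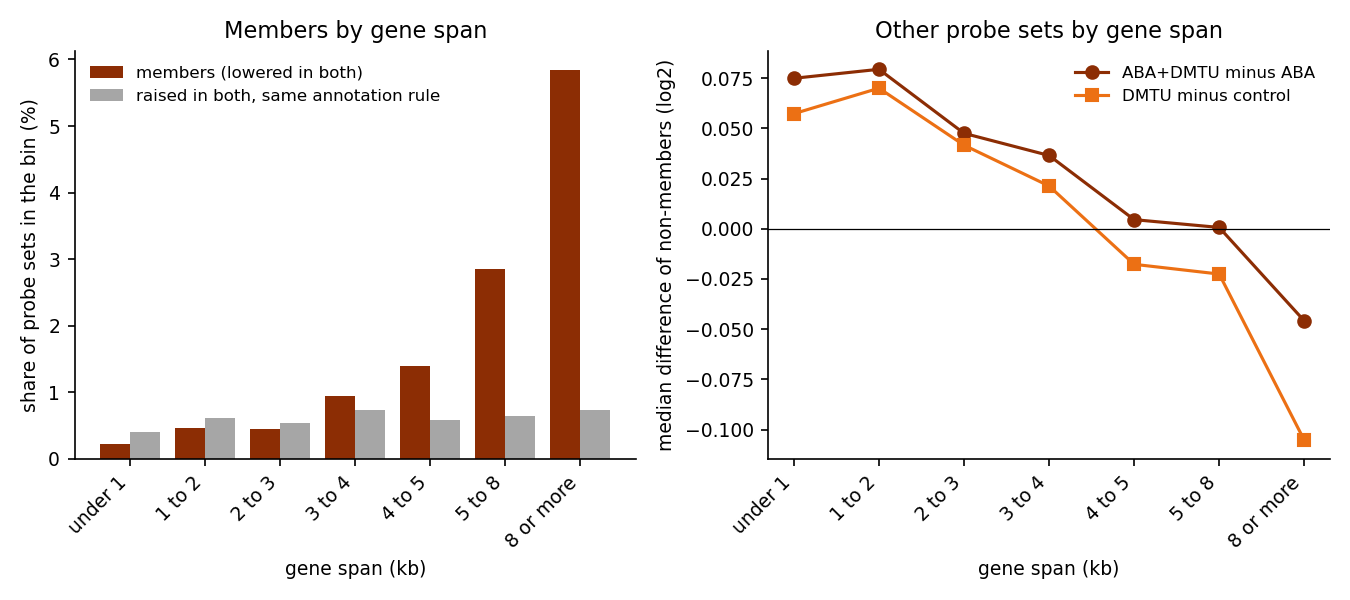
Left, the y axis is the percentage of probe sets in each gene span bin (x axis, kb) that were members (dark) or were raised at least 2-fold in both DMTU comparisons under the same annotation rule (grey), and the dark bars climb to 5.84% at 8 kb or more. Right, the median DMTU differences of probe sets that were no members, on the log2 scale, move from 0.06 and 0.07 in the shortest bin to -0.11 and -0.05 in the longest.

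Membrane traffic genes were among the long members. The TPLATE complex, which gathers at the plasma membrane when clathrin-coated vesicles form, has 8 subunits, all with a probe set, 11 probe sets in all. Members came from 3 of them, AT2G07360, AT3G50590 and AT5G24710, with DMTU minus control of -2.03, -1.73 and -1.65 and ABA+DMTU minus ABA of -2.22, -1.78 and -1.97. AT5G24710 had 4.10, 4.17 and 4.14 in ABA+DMTU, 4.21, 4.21 and 4.24 in DMTU, 6.27, 5.92 and 6.11 in ABA and 6.10, 5.93 and 5.59 in control arrays, without overlap. The other probe sets of these 3 genes had differences between -0.11 and 0.36. The remaining subunits, among them TPLATE itself (0.73 without and 0.60 with ABA), had differences of -0.35 to 0.73. This complex, the groups in the next paragraph and the cell wall and phosphatase groups below were put together after the values were seen. Apart from the complex, they hold members only, so no share of each family on the array is given. They rest on background knowledge and may be incomplete.

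Further traffic members were the epsin AT2G43160, the Rab GTPase-activating proteins AT3G55020 and AT5G52580, and AT4G17140 of the VPS13 lipid-transport family, the longest member gene at 23544 bases. All 7 members grouped under membrane traffic spanned 3000 bases or more, and 6 had another probe set. The 8 members grouped as protein kinases had medians of -1.43 without and -1.59 with ABA, and 7 spanned 3000 bases or more. AT2G20050, with its kinase-like domain, was not counted there. The group included AT2G37840, a homologue of the autophagy kinase ATG1 of yeast. Its member probe set had 4.74, 5.11 and 5.11 in ABA+DMTU, 4.69, 4.72 and 4.66 in DMTU, 6.28, 6.65 and 6.61 in ABA and 6.40, 6.43 and 6.44 in control arrays, and its other probe set differed by -0.11 without and -0.03 with ABA. All 6 members grouped under RNA binding or RNA processing, such as the helicase AT2G01130 and the eIF4E-binding protein AT4G01290, spanned 3000 bases or more. AT2G48060, which encodes a homologue of the animal Piezo mechanosensitive channel, spanned 11616 bases and had 3 probe sets, with DMTU minus control of -1.02 at the member and -1.01 and -0.24 at the others, and ABA+DMTU minus ABA of -2.07, -0.56 and -0.04.

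The ABA effect averaged over DMTU is the mean of ABA minus control and ABA+DMTU minus DMTU. Its value was not used by the rule and could be tested. The rule still limits it, because a fall of 1 needs signal above the low end of the scale. Only 3 members in control and 1 in ABA arrays averaged under a level of 5. Probe sets that ABA took towards that end could hardly be members, so the share called lower is in part limited by the rule. The test was a moderated test with limma across all 22746 probe sets, with Benjamini-Hochberg adjustment. Of the 209 members, 107 were called higher with ABA and 22 lower at an adjusted p under 0.05, which is 51.2% and 10.5%, where 22.5% of all probe sets were called higher and 24.7% lower. At least 2-fold and called were 68 members higher and 7 lower (32.5% and 3.35%), against 7.65% and 9.72% of all. The median ABA effect was 0.51 over the members and 0.03 over all probe sets. Centring each array on its median moved the median of all probe sets to 0.19 and that of the members to 0.67. Then 129 members were called higher and 10 lower. Of all 22746 probe sets, centring moved the higher calls from 5115 to 9280 and the lower calls from 5623 to 4477. Without replicate 1 of the ABA and control groups, 128 members were called higher and 22 lower, against 5673 and 5872 of all probe sets. Among the 13566 probe sets with a mean level of 5 or more, 4323 were called higher and 4815 lower. Of the 194 members there, 107 were called higher and 22 lower.

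Some RNA quality values also moved with ABA. The 3' minus 5' difference of the first ubiquitin pair was 1.03 to 1.17 in ABA+DMTU against 1.28 to 1.41 in DMTU arrays, and 0.64 to 0.72 in ABA against 0.88 to 1.01 in control arrays. The first actin pair had 3.24 to 3.38 in ABA+DMTU against 3.46 to 3.69 in DMTU arrays, and 2.55 to 2.72 in ABA against 2.87 to 3.73 in control arrays. Both were lower with ABA without overlap, whereas the second actin pair was higher in ABA+DMTU than in DMTU arrays and overlapped between ABA and control. The second ubiquitin pair and both GAPDH pairs overlapped in both of these comparisons. Their part in the ABA effect was not tested.

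Short members had the higher median in this value. The 41 members spanning under 3000 bases had a median ABA effect of 1.02, and 26 were called higher and 2 lower, where 20.5% of all probe sets of that length were called higher. The 56 spanning 3000 bases or more had a median of 0.22, and 23 were called higher and 7 lower, where 22.1% of all of that length were called higher. For the 25 members with another probe set the median was 0.11, with 6 called higher and 4 lower, none of them 2-fold. All 25 spanned 3000 bases or more, where 22.1% of all probe sets were called higher and 5.81% higher and at least 2-fold. Lower calls made up 24.7% of all 22746 probe sets, of any length. The difference between short and long members was not tested. The short members also varied more: their median within-group SD was 0.56, against 0.25 for the long ones, and their median deviation was 0.41 in ABA replicate 1 and 0.61 in control replicate 1. Without both arrays numbered 1, 23 of the 41 short members (56.1%) still met the rule, against 43 of the 56 long ones (76.8%) and 23 of the 25 with another probe set (92.0%).

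**Figure D5:**
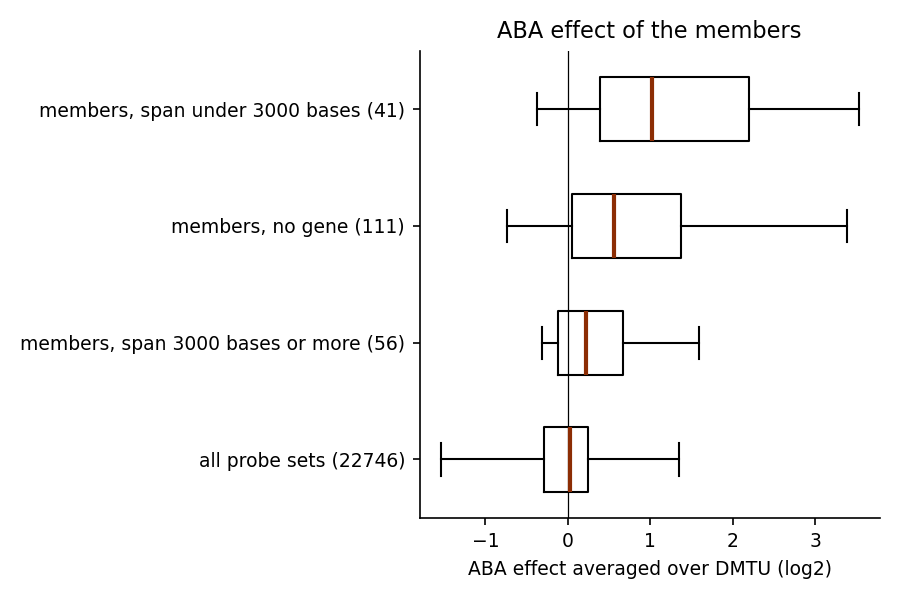
The x axis is the ABA effect averaged over DMTU on the log2 scale, for members by gene span, members with no gene and all probe sets, with the number of probe sets in brackets. Lines in the boxes are medians (1.02, 0.55, 0.22 and 0.03 from top to bottom), boxes span the quartiles and whiskers the 5th to 95th percentiles.

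The largest ABA rises among members with a gene were all in the short class. AT3G26450, of the major latex protein family, had log2 levels of 8.93, 7.44 and 7.62 in ABA+DMTU, 3.21, 3.51 and 3.80 in DMTU, 7.93, 9.62 and 9.52 in ABA and 4.57, 5.22 and 5.21 in control arrays. It rose with ABA by 4.26 ± 0.33 (SE, adjusted p = 1.02e-06, limma), and its ABA+DMTU and ABA arrays overlapped. AT5G41810 had 9.78, 9.76 and 9.63 in ABA+DMTU, 5.55, 5.31 and 5.39 in DMTU, 10.66, 10.86 and 10.78 in ABA and 7.93, 7.11 and 7.43 in control arrays. Its rise was 3.79 ± 0.12 (SE, adjusted p = 1.52e-09, limma), with no overlap between any pair of groups. AT5G54300 rose by 3.53 ± 0.26, the berberine bridge enzyme-like AT2G34810 by 3.22 ± 0.38 and the strictosidine synthase-like AT1G74010 by 3.14 ± 0.31.

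Other members with a rise and a known role were AT1G69480, of the EXS family related to the phosphate exporter PHO1 (3.08 ± 0.22), AT5G15950, an S-adenosylmethionine decarboxylase of polyamine synthesis (1.92 ± 0.37), and AT1G59740, the nitrate and peptide transporter family member NPF4.3 (1.01 ± 0.19). AT5G15950 lay at 10.31, 9.67 and 9.28 in ABA+DMTU, 6.96, 7.57 and 7.43 in DMTU, 11.78, 10.47 and 10.37 in ABA and 10.76, 8.84 and 8.76 in control arrays. In both the ABA and the control group, replicate 1 was the highest there. Of the members with the lowest DMTU differences, AT5G27920, an F-box gene, rose with ABA by 2.18 ± 0.23, and AT5G54040, of a cysteine- and histidine-rich family, by 1.89 ± 0.21. AT5G59400 rose by 1.47 ± 0.28 and AT3G48185 by 0.80 ± 0.18.

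Few members with a gene fell with ABA, and the largest falls were those of AT2G41810, of a cell wall protein family, and of the kinesin AT2G21300. AT2G41810 had 5.36, 4.71 and 4.88 in ABA+DMTU, 6.45, 6.67 and 8.06 in DMTU, 7.05, 6.62 and 6.24 in ABA and 9.33, 8.51 and 8.31 in control arrays. It fell by 2.08 ± 0.29 on the log2 scale (SE, adjusted p = 8.71e-05, limma). AT2G21300 had 4.54, 4.52 and 5.00 in ABA+DMTU, 5.49, 5.85 and 6.57 in DMTU, 6.31, 6.04 and 5.79 in ABA and 7.34, 7.21 and 7.17 in control arrays, and fell by 1.24 ± 0.17. The next were AT1G33680, a KH-domain RNA-binding protein (-0.54 ± 0.12), AT3G27390 (-0.53 ± 0.20) and the pseudogene AT2G12250 (-0.37 ± 0.12). The calls of AT3G27390 and AT2G12250 were lost with arrays centred on their medians (adjusted p = 0.118 and 0.146, limma).

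The cell wall members were AT3G49220, a pectin methylesterase, AT1G13830, with a carbohydrate-binding domain, AT4G20460, a UDP-arabinose epimerase, and AT2G41810. AT3G49220 rose with ABA by 1.59 ± 0.15, AT1G13830 by 2.23 ± 0.12 and AT4G20460 by 1.02 ± 0.30. AT1G13830 had 6.33, 6.33 and 6.27 in ABA+DMTU, 4.43, 4.15 and 4.13 in DMTU, 8.63, 7.93 and 7.92 in ABA and 5.87, 5.64 and 5.78 in control arrays. The 5 members grouped for a protein phosphatase 2C domain were AT2G20050, AT3G62260, AT1G68410, AT4G32950 and AT2G40860. They had DMTU minus control of -2.39 to -1.18 and ABA+DMTU minus ABA of -2.05 to -1.02. Of these, AT4G32950 rose with ABA by 1.23 ± 0.13 and AT2G20050 by 0.34 ± 0.10.

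Probe sets annotated with a symbol or as class III peroxidases could not be members. Lists of oxidative stress genes can therefore be read only in part. A gene is said here to have a probe set where the annotation named it alone. Listed genes without one may be read by some of the 8730 probe sets with no gene, which cannot be seen here. Of the 5 genes known to respond to most kinds of oxidative stress, 4 had a probe set of their own and 1, AT1G05340, was a member. It encodes a small cysteine-rich transmembrane protein and had 6.82, 6.59 and 6.50 in ABA+DMTU, 4.31, 4.42 and 4.19 in DMTU, 9.45, 6.73 and 7.01 in ABA and 6.90, 4.95 and 5.26 in control arrays. The ABA+DMTU and ABA arrays overlapped, and in the ABA and control groups replicate 1 was by far the highest. It rose with ABA by 2.18 ± 0.45 (SE, adjusted p = 0.00179, limma), while AT1G19020 and AT2G21640, also of that list, fell by 1.68 ± 0.27 and 1.80 ± 0.29. DMTU minus control was -0.08 for AT1G19020, 0.55 for AT2G21640 and -0.01 for AT1G57630, and ABA+DMTU minus ABA was 1.49, 0.23 and 0.13. Of 29 genes for scavenging of hydrogen peroxide and superoxide, 3 had a probe set of their own, and of these only the peroxiredoxin gene AT3G11630, with 0.31 without and 0.88 with ABA, had no symbol. The ascorbate peroxidases SAPX, with -0.85 and -1.09, and TAPX, with -0.20 and 0.34, carry one. Of 15 regulators that respond to hydrogen peroxide, 2 had a probe set of their own, both with a symbol. STZ had 0.45 and -0.41 and WRKY6 0.30 and -0.53.

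AT2G32190, of the same cysteine-rich transmembrane family as AT1G05340, was read by 2 members. Its own probe set had 6.44, 7.04 and 6.76 in ABA+DMTU, 6.50, 6.14 and 5.08 in DMTU, 11.16, 7.79 and 8.02 in ABA and 10.05, 7.58 and 8.02 in control arrays. The probe set it shares with AT2G32210 had 6.71, 7.52 and 7.24 in ABA+DMTU, 7.20, 6.81 and 5.63 in DMTU, 10.77, 7.65 and 7.99 in ABA and 10.15, 8.32 and 8.45 in control arrays. In both, replicate 1 of the ABA and control groups was higher than the rest by over 1.5 log2 units, and arrays with and without DMTU did not overlap. AT3G15450, of a family induced by aluminium and by sugar starvation, had 7.64, 8.37 and 8.81 in ABA+DMTU, 8.35, 7.22 and 6.62 in DMTU, 11.25, 8.94 and 9.50 in ABA and 12.08, 9.30 and 9.85 in control arrays, with the same replicates highest. The copper amine oxidase gene AT3G43670, of enzymes that release hydrogen peroxide, had 4.66, 4.47 and 4.61 in ABA+DMTU, 4.34, 4.32 and 4.04 in DMTU, 5.43, 5.92 and 5.83 in ABA and 7.26, 5.19 and 5.54 in control arrays. Its ABA effect was 0.04 ± 0.29 (adjusted p = 0.932, limma).

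Some members had only 1 probe set and a long gene. AT3G27325, a relative of the inositol deacylase that remodels GPI anchors, spanned 7409 bases. It had 4.69, 4.69 and 4.76 in ABA+DMTU, 4.47, 4.17 and 4.23 in DMTU, 7.11, 7.04 and 7.00 in ABA and 7.03, 7.14 and 6.84 in control arrays, which places the 6 arrays with DMTU at least 2 log2 units below the 6 without. Its ABA effect was 0.23 ± 0.08 (adjusted p = 0.027, limma, and 0.0747 with an intensity trend).

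The 111 probe sets with no gene held the lowest DMTU minus control of the members, while the lowest ABA+DMTU minus ABA was that of AT3G25640. Probe set 252415_at had 8.11, 5.74 and 5.97 in ABA+DMTU, 4.52, 4.73 and 4.49 in DMTU, 11.81, 8.76 and 9.53 in ABA and 10.46, 8.83 and 9.27 in control arrays. The DMTU minus control difference was -4.94 and the ABA+DMTU minus ABA difference -3.43. Probe set 247508_at had 5.46, 5.20 and 5.44 in ABA+DMTU, 4.63, 4.97 and 4.79 in DMTU, 9.02, 8.73 and 8.71 in ABA and 8.29, 7.99 and 7.73 in control arrays. Probe set 257774_at followed, with -2.72 without and -3.91 with ABA. Over the 111, the array medians averaged 6.40 ± 0.19 in ABA+DMTU, 5.41 ± 0.03 in DMTU, 8.33 ± 0.26 in ABA and 7.31 ± 0.11 in the control group (SD over 3 arrays each). Their median ABA effect was 0.55, with 58 called higher and 13 lower by limma, where 25.2% of all probe sets with no gene were called higher. Of all 22746 probe sets, with or without a gene, 24.7% were called lower.

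A marker is called measured here where the annotation named it alone for a probe set. All measured markers of differentiated cell types carry a symbol, so these probe sets could not be members. Probe sets with no gene may read other listed markers, which cannot be seen here. Guard cell lineage genes SPCH, MUTE and FMA and the root hair expansins EXPA7 and EXPA18, the measured ones of 9 listed, averaged between 3.41 and 4.15 in every group, near the lower quartiles of the arrays. The leaf genes RCA and PSAN, the measured ones of 19 listed, had strong signal. RCA, which activates Rubisco, averaged 12.17 in ABA+DMTU, 11.10 in DMTU, 11.49 in ABA and 11.30 in control arrays. PSAN, a photosystem I subunit, averaged 8.80 in ABA+DMTU, 6.94 in DMTU, 9.79 in ABA and 9.55 in control arrays, and so differed by -2.61 without and -0.99 with ABA. The part of such cells in the members' differences was not tested. No listed seed, xylem or pollen gene had a probe set with a gene of its own here.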

How the data were processed

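The authors deposited log2 values per probe set for 12 single-colour Affymetrix arrays, and those were used here. RMA and limma are named, without role or version, per the submitters' processing notes, and labelling used a 3' kit, per the labels' protocols. No further normalization was applied, and array medians lay between 5.78 and 6.05. Precision is limited by how many arrays there are. The 64 control probe sets were left out. The platform annotation named 1 gene for 13513 probe sets, updated through RefSeq's TAIR10.1 gene table, which matched 13436. The tables hold no product text, so the 73 class III peroxidase loci came from a written list and planned keyword classes were not used, and roles of loci are background knowledge. Promoter and protein sequences were not used here.

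The fit used limma 3.58.1 (R 4.3.3) with 1 mean for each group and 8 residual degrees of freedom, and was tested on simulated data. The contrast tested is orthogonal to both DMTU differences of the rule, but the rule still limits the levels that members can have. Errors of effects are standard errors. Python 3.11.15 and pandas 2.3.3 handled tables.

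Named members were the 16 with 1 gene and the lowest mean DMTU difference, the 5 largest called ABA rises and falls, the 3 nearest each side of the threshold, the 3 lowest without a gene and the listed genes. Other names, gene groups and the second probe set analysis were chosen after values were seen. Members and lists were chosen with earlier results of these data known. Deviations of same-numbered arrays correlated over 0.1 at every number only between ABA and control (r = 0.52, 0.42 and 0.39), as a hint from the data. Arrays 2 and 3 of those groups correlated as much across numbers (r = 0.44 and 0.41), so beyond arrays numbered 1 the values did not follow the number.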

Additional observations from a re-analysis of the deposited data

How the results depend on the processing

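Applied again with each replicate left out, the rule gave 176 to 235 probe sets, with at least 165 of the 209 among them, 212 with arrays centred on their medians and 184 with group medians. All of these lay within 1.5 times the 209, and their median mean DMTU difference was -1.50 to -1.58. Leaving out the 21 members whose gene has another probe set with a value at least 1 apart, a step chosen after seeing the data, left 188. The symbols of the platform annotation as given chose the same number, 209. For the ABA effect, members called higher were 102 to 125 and lower 16 to 20 without 1 replicate, 131 and 29 with array weights, 105 and 17 with an intensity trend, and 128 and 22 without both arrays numbered 1. Of all 22746 probe sets, 4692 to 5503 were called higher and 5309 to 5796 lower without 1 replicate. With array weights these were 6794 and 6558, and with an intensity trend 5124 and 5541. Without dim probe sets 194 members stayed in the fit, with 107 higher and 22 lower, where 4323 and 4815 of all 13566 probe sets in that fit were. With the replicate number as a block, 116 were higher and 22 lower, within 1.5 times of the 107 and 22. Of all probe sets, 5148 were called higher and 5652 lower in that run. Centring moved the lower calls to 10 for members and to 4477 for all probe sets. The median ABA effect was 0.41 to 0.65 without 1 replicate. It was 1.02 over members spanning under 3000 bases only and 0.22 over those of 3000 or more, a split chosen after seeing the data. Of 32 named probe sets, 23 kept their call under every alternative run, and over all 576 values 31 calls were lost, 18 gained and 0 reversed. Signal near the low end of the scale may limit the size of many DMTU differences, which was not tested.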
